A study of Mus musculus with 9 samples.

Results

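Dendritic cells are rare bone marrow-derived cells that sense infection and present antigen to T cells. Here the RNA of 10 genes that act in these cells, not all of them restricted to these cells, was followed in the CD11b+ cell fraction. The genes were Flt3, Siglech, Ccr9, Spib, Tcf4, Runx2, Clec9a, Xcr1, Zbtb46 and Cd209a. The genes were taken by name from the read count tables of 9 libraries, 10 of the 23337 genes listed, and all 10 were among the 12553 genes that passed the filter on low counts. Each library was made from the CD11b+ bone marrow cells of a single male C57BL/6 mouse aged 3 to 6 weeks, with 3 mice in each of 3 groups. CD11b, the integrin chain encoded by Itgam, marks myeloid cells. The PBS group received 100 µl of PBS by tail vein on days 1, 3 and 5. The EnzR EVs group received on the same days 100 µl with 10 µg of protein of extracellular vesicles (EVs) shed by enzalutamide-resistant CWR-R1 cells, a human prostate cancer line. The EnzR EVs + HDL NPs group received those EVs and, on days 0, 2 and 4, HDL NPs, which are gold-core particles that carry apolipoprotein A-1 and phospholipid in the manner of high-density lipoprotein. No group received HDL NPs alone or EVs of another source, so the values show the EVs only against PBS and the particles only on top of the EVs. The labels give the particle concentration as 1 µM and the study's methods as 100 µM.

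Dendritic cells arise from marrow progenitors that carry FLT3, the receptor for FLT3 ligand, and they divide into plasmacytoid and conventional types. Plasmacytoid dendritic cells make type I interferon and depend on the E protein TCF4, which acts with SPIB and RUNX2. They display Siglec-H and, once mature, CCR9. Conventional dendritic cells share the repressor ZBTB46. Their type 1 cells take up dead cells through CLEC9A and carry the chemokine receptor XCR1, and their type 2 cells and dendritic cells derived from monocytes can carry CD209A, a mouse relative of the lectin DC-SIGN. Of these cells, type 2 conventional and monocyte-derived dendritic cells are the ones with much surface CD11b, whereas plasmacytoid and type 1 cells have little of it. RNA was measured in the whole CD11b+ fraction, so fewer cells of a type and less RNA of a gene per cell cannot be told apart.

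TCF4 binds DNA at E-boxes, which read CANNTG on both strands. The windows around the start sites of 4 genes that stood highest in the same mice as Tcf4 (Flt3, Siglech, Ccr9 and Spib), and of Cd209a, the gene with the smallest unadjusted p against PBS, are given for reference from RefSeq on the GRCm38.p6 assembly, from 250 bases before to 50 bases after the start. E-boxes are in capitals. The Flt3 window lies at chr5:147400440-147400739 on the minus strand, Siglech at chr7:55767934-55768233 on the plus strand, Ccr9 at chr9:123766961-123767260 on the plus strand, Spib at chr7:44532022-44532321 on the minus strand and Cd209a at chr8:3748935-3749234 on the minus strand.
Flt3: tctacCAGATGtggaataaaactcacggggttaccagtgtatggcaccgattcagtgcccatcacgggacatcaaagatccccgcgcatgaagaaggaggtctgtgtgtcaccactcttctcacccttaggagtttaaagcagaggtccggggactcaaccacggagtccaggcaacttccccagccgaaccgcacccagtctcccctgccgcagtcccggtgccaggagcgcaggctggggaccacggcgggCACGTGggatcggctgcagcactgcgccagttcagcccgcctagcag
Siglech: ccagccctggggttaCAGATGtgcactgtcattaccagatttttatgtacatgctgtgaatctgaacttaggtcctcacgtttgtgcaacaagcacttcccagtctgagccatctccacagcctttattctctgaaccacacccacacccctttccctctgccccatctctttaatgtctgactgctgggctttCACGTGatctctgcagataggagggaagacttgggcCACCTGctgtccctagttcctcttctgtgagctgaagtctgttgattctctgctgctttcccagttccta
Ccr9: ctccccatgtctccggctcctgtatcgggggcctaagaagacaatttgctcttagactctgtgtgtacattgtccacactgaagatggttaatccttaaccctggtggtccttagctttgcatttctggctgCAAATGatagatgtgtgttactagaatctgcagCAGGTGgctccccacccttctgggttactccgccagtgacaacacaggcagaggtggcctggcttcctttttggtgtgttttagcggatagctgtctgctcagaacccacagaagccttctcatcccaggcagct
Spib: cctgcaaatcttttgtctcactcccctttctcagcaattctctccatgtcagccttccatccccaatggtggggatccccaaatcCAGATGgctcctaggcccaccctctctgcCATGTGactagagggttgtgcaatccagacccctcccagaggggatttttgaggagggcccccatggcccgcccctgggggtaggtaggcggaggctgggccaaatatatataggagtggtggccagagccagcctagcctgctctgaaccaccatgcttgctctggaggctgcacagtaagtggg
Cd209a: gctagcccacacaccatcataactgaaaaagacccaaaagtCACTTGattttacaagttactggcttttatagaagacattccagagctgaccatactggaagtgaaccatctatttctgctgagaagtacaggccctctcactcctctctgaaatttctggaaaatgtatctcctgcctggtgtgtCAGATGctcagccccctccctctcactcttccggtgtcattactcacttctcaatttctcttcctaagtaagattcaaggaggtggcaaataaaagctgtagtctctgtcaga
The table held windows for 9 of the 10 genes, and each of the 9 had at least 1 E-box. At least 1 was also present in 72.3% of the 32851 windows of the same length. The Siglech window had 3, a number reached by 17.6% of all windows, and the windows of Flt3, Ccr9, Spib and Cd209a had 2 each, reached by 39.6%. The window of Zbtb46, at chr2:181424339-181424638 on the minus strand, had the most with 6, reached by 0.67% of windows. It belongs to an internal start, since the gene is annotated at chr2:181371009-181493262 and its 5′ end lies far from this window. The Runx2 window, at chr17:44814578-44814877 on the minus strand, had 2 E-boxes and 3 matches to TGTGGT on either strand, the letters bound by RUNX proteins. Such a match was present in 16.8% of all windows. These matches describe letters, not bound sites.

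The libraries held between 2575776 and 18110561 counts. Itgam stood between 1389 and 2006 CPM (read counts relative to the library total, scaled between libraries with the trimmed mean of M values, TMM) in all 9, so RNA of the marker used for sorting was present throughout. The share of counts taken by the ribosomal RNA precursor Rn45s was 20.3% in PBS mouse 1, 42.7% in EnzR EVs mouse 1 and 14.2% in EnzR EVs mouse 3, and between 0.657% and 2.87% in the other libraries. A gene with 3 counts stood at 0.160 CPM in the deepest library and at 1.65 CPM in the shallowest, EnzR EVs mouse 1, so the low members were near the limit of that library.

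Together the 10 genes took between 239 and 1676 counts per library, or 0.00715% to 0.0113% of all counts. Per kilobase of transcript, the order of mean levels over the 9 libraries was Runx2 (6.78 ± 1.00 CPM per kb, SD, n = 9), Cd209a (4.04 ± 2.40), Tcf4 (2.93 ± 1.21), Flt3 (2.28 ± 0.70), Spib (1.32 ± 1.21), Clec9a (0.704 ± 0.385), Siglech (0.446 ± 0.394), Ccr9 (0.338 ± 0.209), Xcr1 (0.229 ± 0.095) and Zbtb46 (0.165 ± 0.056). Runx2 was above Cd209a in 8 of 9 libraries, with a mean difference of 2.74 ± 2.53 CPM per kb. Every later neighbour in the order was closer: Cd209a was above Tcf4 in 4 of 9 libraries, Siglech above Ccr9 in 5 of 9, and the other pairs of neighbours kept their order in 6 or 7 of 9. Only for Runx2 against Cd209a and Flt3 against Spib was the mean difference larger than its SD. Runx2 and Tcf4 are not restricted to dendritic cells.

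**Figure D1:**
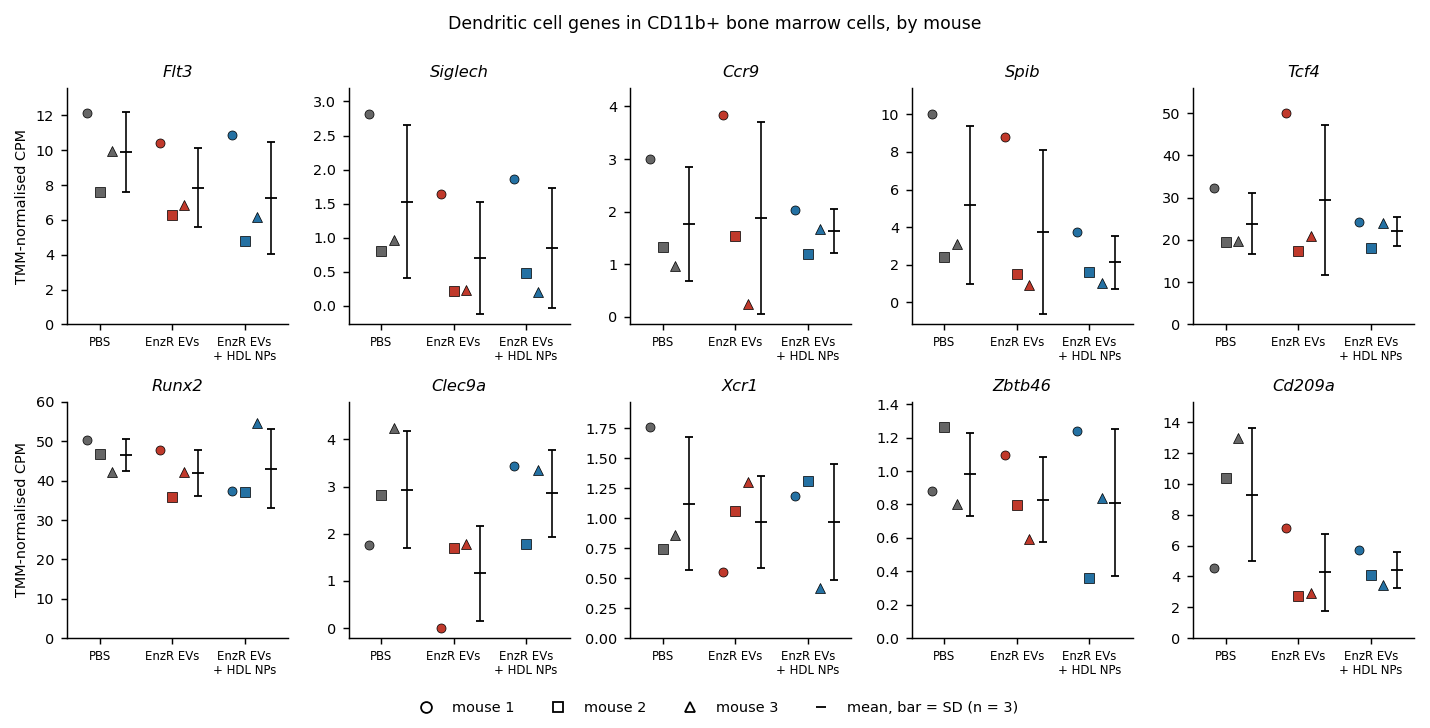
TMM-normalised CPM of the 10 genes in each mouse. Circles, squares and triangles are the mice numbered 1, 2 and 3 of a group, and the bar beside them is the mean with its SD (n = 3). For Flt3, Siglech, Ccr9, Spib and Tcf4 the circle is the highest point in all 3 groups, and for Cd209a PBS mice 2 and 3 stand above all others.

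Flt3, the receptor that progenitors of dendritic cells need, was at 12.1, 7.59 and 9.95 CPM in the PBS mice, at 10.4, 6.28 and 6.86 CPM in the EnzR EVs mice and at 10.9, 4.77 and 6.15 CPM in the EnzR EVs + HDL NPs mice, in the order of mouse number. The 3 groups overlapped, and mouse 1 was the highest in each. The means were 9.90 ± 2.28, 7.85 ± 2.25 and 7.26 ± 3.20 CPM (SD, n = 3). The log2 fold change was -0.40 (SE 0.35) for EnzR EVs against PBS and -0.43 (SE 0.33) with HDL NPs against PBS, with adjusted p = 0.928 and 1.00 by edgeR. Its ligand gene Flt3l was at 8.27, 7.71 and 7.78 CPM in PBS mice, 3.84, 8.30 and 6.62 CPM after EnzR EVs and 8.84, 9.18 and 7.75 CPM with HDL NPs, and its lowest value came from 7 counts.

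Siglech, the surface lectin that marks plasmacytoid dendritic cells, was at 2.82, 0.805 and 0.973 CPM in PBS mice, 1.65, 0.213 and 0.236 CPM after EnzR EVs and 1.86, 0.477 and 0.210 CPM with HDL NPs. These values rest on 16, 14 and 17 counts, on 3, 4 and 2 counts and on 33, 8 and 3 counts. Within each group mouse 1 was well above the other two, and the range of each group took in part of the others. The log2 fold change was the lowest of the 10 genes for EnzR EVs against PBS, at -1.90, with an SE of 1.06 and adjusted p = 0.928 by edgeR. It was -0.67 (SE 0.82) with HDL NPs against PBS and 1.22 (SE 1.05) with HDL NPs against EnzR EVs. The last turned to -0.10 without EnzR EVs + HDL NPs mouse 1, which held 33 of the 44 counts of its group.

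Ccr9, the receptor for the chemokine CCL25, was at 2.99, 1.32 and 0.973 CPM in PBS mice, 3.84, 1.54 and 0.236 CPM after EnzR EVs and 2.03, 1.19 and 1.68 CPM with HDL NPs. The EnzR EVs mice spanned both the highest and the lowest of the 9 values, from 7 and 2 counts. The log2 fold changes were -0.20 (SE 0.75) for EnzR EVs against PBS, 0.00 (SE 0.61) with HDL NPs against PBS and 0.20 (SE 0.72) with HDL NPs against EnzR EVs. The mean CPM was 1.76 in PBS mice, 1.87 after EnzR EVs and 1.63 with HDL NPs. The fitted signs thus ran against the means, and no direction is read from them. Exons of Ccr9 overlap those of Gm17200 on the same strand and of Slc6a20a and AC165425.1 on the other, so part of its counts could have been lost to, or come from, these genes. Ccl25 itself stood between 0.709 and 1.76 CPM in the 9 libraries.

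Spib, an ETS-family transcription factor of plasmacytoid dendritic cells and B cells, was at 10.0, 2.42 and 3.09 CPM in PBS mice, 8.78, 1.49 and 0.946 CPM after EnzR EVs and 3.72, 1.61 and 1.05 CPM with HDL NPs. The highest library was 10.6 times the lowest. Mice 2 and 3 of both EV groups, between 0.946 and 1.61 CPM, lay below all PBS mice, and mouse 1 of both EV groups lay above PBS mice 2 and 3. The log2 fold change was -0.91 (SE 0.88) for EnzR EVs against PBS and -1.19 (SE 0.79) with HDL NPs against PBS, with adjusted p = 0.928 and 1.00 by edgeR. It was -0.27 (SE 0.89) with HDL NPs against EnzR EVs, and without EnzR EVs mouse 1 it was 0.75.

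Tcf4, the E protein that sets the plasmacytoid fate, was at 32.2, 19.5 and 19.8 CPM in PBS mice, 49.9, 17.5 and 20.9 CPM after EnzR EVs and 24.1, 18.0 and 23.9 CPM with HDL NPs. Apart from PBS mouse 1 and EnzR EVs mouse 1, which also had the highest shares of Rn45s, the libraries lay between 17.5 and 24.1 CPM. The log2 fold changes were 0.24 (SE 0.37), -0.10 (SE 0.36) and -0.34 (SE 0.37) in the 3 comparisons, in the order EnzR EVs against PBS, with HDL NPs against PBS and with HDL NPs against EnzR EVs. Without EnzR EVs mouse 1 the first was -0.29 and the last 0.19. The other E protein genes Tcf3 and Tcf12, whose products bind the same E-box letters, were at 36.1 to 51.7 and 12.6 to 43.9 CPM.

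Runx2, which acts in plasmacytoid dendritic cells and is best known as the regulator of osteoblasts, was the most even of the 10 genes. It was at 50.3, 46.8 and 42.2 CPM in PBS mice, 47.7, 35.9 and 42.3 CPM after EnzR EVs and 37.4, 37.1 and 54.6 CPM with HDL NPs, so that the highest library was 1.52 times the lowest. Its log2 fold changes were -0.16, -0.11 and 0.05 in the same order, each with an SE of 0.20. Of 12 stromal and osteoblast markers, 8 were tested, and the summed level of the list ranged from 27.1 CPM in PBS mouse 1 to 93.9 CPM in PBS mouse 3. The osteoblast genes Sp7 and Bglap had at most 2 and 3 counts in any library, whereas the bone matrix genes Ibsp and Spp1 reached 52 and 229 counts and the collagen gene Col1a1 140 counts. The part of such cells in the level of Runx2 was not tested, and how many of them the CD11b+ isolation left was not measured. The antisense gene Runx2os1 overlaps exons of Runx2.

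Clec9a, the receptor for dead cells on type 1 conventional dendritic cells, was at 1.76, 2.82 and 4.23 CPM in PBS mice, 0, 1.70 and 1.77 CPM after EnzR EVs and 3.43, 1.79 and 3.35 CPM with HDL NPs. The value of 0 came from EnzR EVs mouse 1, where the depth allows up to 1.65 CPM. The EnzR EVs + HDL NPs mice were all above the EnzR EVs mice, by a margin of 1.79 against 1.77 CPM at the nearest. Clec9a was the single member of 10 whose groups did not overlap in that comparison, where 8.99% of tested genes were higher and 8.58% lower without overlap. The log2 fold change was 0.95 (SE 0.54, adjusted p = 0.486 by edgeR), and the two-sided exact permutation test of the CPM gave p = 0.10, the smallest that 3 against 3 mice allow. For EnzR EVs against PBS the log2 fold change was -1.04 (SE 0.54, adjusted p = 0.928 by edgeR), and with HDL NPs against PBS it was -0.09 (SE 0.48).

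Xcr1, the other receptor of type 1 conventional cells, was at 1.76, 0.748 and 0.858 CPM in PBS mice, 0.549, 1.06 and 1.30 CPM after EnzR EVs and 1.18, 1.31 and 0.419 CPM with HDL NPs. Its log2 fold changes of 0.06 (SE 0.56), -0.08 (SE 0.54) and -0.13 (SE 0.55) stand beside -1.04, -0.09 and 0.95 for Clec9a, and the difference between the genes was not tested. The mean CPM of Xcr1 was 1.12 in PBS mice and 0.971 after EnzR EVs, so the sign of its first value ran against the means. Xcl1, which encodes the ligand of XCR1, had between 0 and 33 counts. Batf3, the transcription factor that type 1 cells require, was at 1.58, 1.21 and 1.49 CPM in PBS mice, 2.19, 0.426 and 0.828 CPM after EnzR EVs and 0.844, 0.954 and 0.629 CPM with HDL NPs.

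Zbtb46, the factor shared by conventional dendritic cells, was the lowest of the 10 genes. It was at 0.880, 1.27 and 0.801 CPM in PBS mice, 1.10, 0.798 and 0.591 CPM after EnzR EVs and 1.24, 0.358 and 0.838 CPM with HDL NPs, from 2 to 22 counts per library. The groups overlapped, and the log2 fold changes were -0.38 (SE 0.56), -0.29 (SE 0.51) and 0.09 (SE 0.56). The mean CPM was 0.829 after EnzR EVs and 0.811 with HDL NPs, so the sign of the last value ran against the means.

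Cd209a, the lectin of monocyte-derived and type 2 dendritic cells, was at 4.58, 10.4 and 12.99 CPM in PBS mice, 7.13, 2.71 and 2.96 CPM after EnzR EVs and 5.69, 4.11 and 3.42 CPM with HDL NPs. PBS mice 2 and 3 had 180 and 227 counts and stood above every EV-injected mouse, while PBS mouse 1, with 26 counts, stood among them. The means were 9.31 ± 4.30, 4.27 ± 2.48 and 4.41 ± 1.16 CPM (SD, n = 3). The log2 fold change was -1.39 (SE 0.46) for EnzR EVs against PBS and -1.10 (SE 0.42) with HDL NPs against PBS. Unadjusted p was 0.0122 and 0.0231 and adjusted p 0.928 and 1.00 by edgeR, and the exact permutation test of the CPM gave p = 0.20 in both. Among all tested genes Cd209a held rank 91 and rank 116 by unadjusted p. Its log2 fold change was 0.29 (SE 0.46) with HDL NPs against EnzR EVs.

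Cd209a departed from the rest of its group in PBS mouse 1 and EnzR EVs mouse 1, which had the highest shares of Rn45s. Among the 6 libraries with a share of at most 2.87%, Cd209a was at 10.4 and 12.99 CPM in PBS mice, 2.71 CPM in the EnzR EVs mouse and 3.42 to 5.69 CPM with HDL NPs. Among the other 3 it was at 4.58 CPM in the PBS mouse and at 7.13 and 2.96 CPM in the EnzR EVs mice. When the PBS and EnzR EVs mice numbered 1, the libraries with the lowest totals, were left out, the log2 fold change for EnzR EVs against PBS was -2.04 with adjusted p = 0.0565 by edgeR. With libraries weighted by their quality in limma voom it was -1.88 with adjusted p = 0.0130, the only value of a member below 0.05 in any fit, and 1990 genes were called in that fit. The weights were 0.365, 3.61 and 3.17 for the PBS mice and 0.315, 0.334 and 2.65 for the EnzR EVs mice, so that this value sets mainly PBS mice 2 and 3 against EnzR EVs mouse 3.

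The Cd209 genes form a family of 7 in these tables, of which Cd209a and Cd209f passed the filter on low counts. Cd209f, a lectin of macrophages, was at 0.704, 3.97 and 7.21 CPM in PBS mice, 0.549, 0.639 and 0.946 CPM after EnzR EVs and 2.81, 2.03 and 1.54 CPM with HDL NPs. Here too PBS mouse 1 stood apart from PBS mice 2 and 3. The log2 fold change was -2.48 (SE 0.70, adjusted p = 0.928 by edgeR) for EnzR EVs against PBS and 1.52 (SE 0.71) with HDL NPs against EnzR EVs, where the groups did not overlap. Of all stretches of 75 bases, the read length, in the Cd209f transcript, 67.2% were found in no other gene, the rest being shared with Cd209g, so Cd209f counts are uncertain. For Cd209a this was 100%. Cd209b, Cd209c, Cd209d, Cd209e and Cd209g had between 0 and 9 counts in every library.

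**Figure D2:**
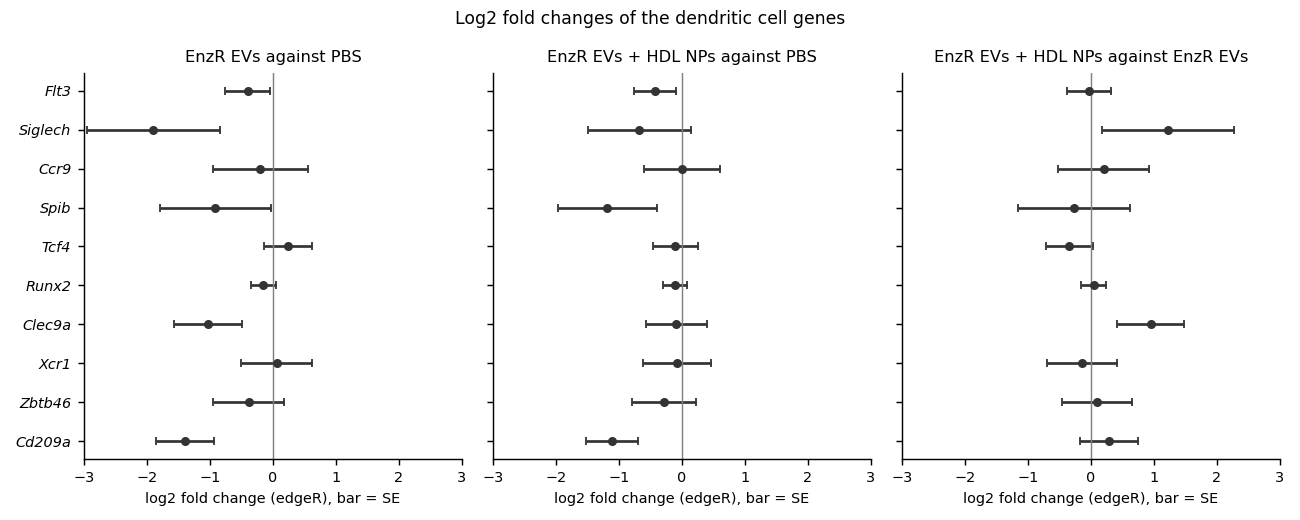
Log2 fold change of each gene in the 3 comparisons, with its SE, from edgeR fitted to all 9 libraries. Cd209a and Siglech lie farthest below 0 for EnzR EVs against PBS (-1.39 and -1.90), and Runx2 lies between -0.16 and 0.05 throughout.

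Counted over the 10 genes, none was called at an adjusted p under 0.05 by edgeR in any of the 3 comparisons, nor by DESeq2, which gave Zbtb46 no adjusted p with HDL NPs against PBS. Over all 12553 tested genes edgeR called 0.00% in each, DESeq2 called 8, 7 and 1 genes, and 436, 268 and 1325 genes had an unadjusted p under 0.05 by edgeR. For EnzR EVs against PBS, 8 of 10 log2 fold changes were below 0, against 53.5% of all tested genes, with a median of -0.39 against -0.03. With HDL NPs against PBS, 9 of 10 were below 0, against 51.1%, with a median of -0.20 against -0.01. These comparisons share the PBS mice and are not separate evidence of a direction. With HDL NPs against EnzR EVs, 4 of 10 were below 0, against 47.2%, with a median of 0.07 against 0.03. The fitted sign ran against the mean CPM for Ccr9 in all 3 comparisons. It did so for Xcr1 with EnzR EVs against PBS and for Zbtb46 with HDL NPs against EnzR EVs. Which genes were below 0 therefore depended on the fit. For EnzR EVs against PBS, Ccr9 was higher and Xcr1 lower by the means, so the count stayed at 8 of 10. At an unadjusted p under 0.05 by edgeR, Cd209a alone was lower in both comparisons with PBS, against 1.92% and 1.12% of tested genes, and no member was higher, against 1.55% and 1.02%. No member was, with HDL NPs against EnzR EVs, at such a p in either direction, against 3.58% of tested genes higher and 6.97% lower. No member was apart between groups in either comparison with PBS, where 4.52% and 6.21% of genes were lower and 3.43% and 6.96% higher without overlap.

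The spread between mice of one group exceeded the differences between groups for most of the genes, and it had a pattern. In Flt3, Siglech, Ccr9, Spib and Tcf4, the 3 mice numbered 1 were above each of the 6 other mice, whatever the group. Flt3 was at 10.4 to 12.1 CPM in the mice numbered 1 and at 4.77 to 9.95 CPM in the others. Siglech was at 1.65 to 2.82 CPM against 0.210 to 0.973 CPM, Ccr9 at 2.03 to 3.84 CPM against 0.236 to 1.68 CPM, and Spib at 3.72 to 10.0 CPM against 0.946 to 3.09 CPM. Tcf4 was at 24.1 to 49.9 CPM against 17.5 to 23.9 CPM, so its nearest values were close. In EnzR EVs mouse 1, Siglech rests on 3 counts and Ccr9 on 7. A value of 3 counts is at the limit of that library, so the arrangement is not established for Siglech. With Siglech included, 5 of 10 members stand beside 3.02% of all tested genes with this arrangement. For the mice numbered 2 and 3, 3.04% and 0.494% of tested genes had it and no member did. In Runx2, Zbtb46 and Cd209a the mice numbered 1 lay within the range of the others. In Xcr1 the highest value, 1.76 CPM, and in Clec9a the lowest, 0 counts, belonged to a mouse numbered 1, while the rest of them lay within that range. The pattern was noticed after the values were seen and was given no test, and the labels do not say that a number marks anything the mice share.

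**Figure D3:**
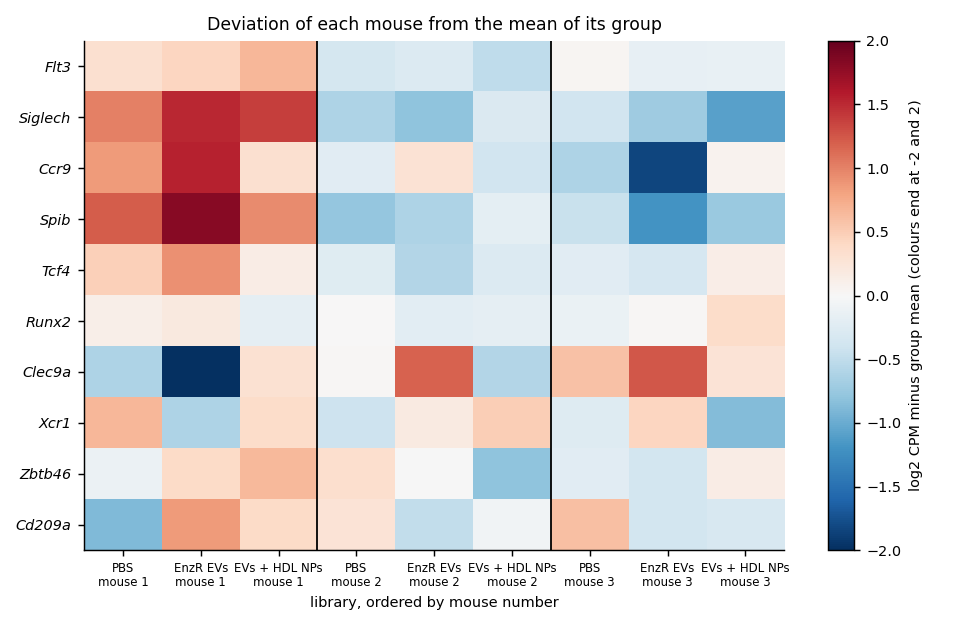
Colour gives the log2 CPM (prior count 2) of a gene in a library minus the mean of its group of 3 mice, with libraries ordered by mouse number. Flt3, Siglech, Ccr9, Spib and Tcf4 are above 0 in the 3 mice numbered 1, and Clec9a is lowest in EnzR EVs mouse 1, where it had 0 counts.

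Some genes of other lists had the same arrangement. Of 16 tested further genes of plasmacytoid dendritic cells, the mice numbered 1 stood above all others in 4: Irf8, Ptprs, Ly6d and Nrp1. Irf8, a transcription factor of plasmacytoid and type 1 cells, was at 83.6 to 139.9 CPM against 55.0 to 74.0 CPM, and the receptor phosphatase Ptprs at 23.98 to 29.1 CPM against 10.97 to 21.5 CPM. Of 12 tested B lineage markers, 4 did, among them Ebf1, Vpreb3 and Rag1. In EnzR EVs mouse 1, Vpreb3 and the plasmacytoid gene Ly6d had 3 counts each, so for them the arrangement is not established. Rag1, a recombinase gene of lymphoid progenitors, was at 2.93 to 5.81 CPM against 0.473 to 2.12 CPM, and the summed B lineage markers at 44.7, 25.7 and 38.0 CPM in PBS mice, 35.7, 16.6 and 14.8 CPM after EnzR EVs and 35.6, 18.1 and 13.3 CPM with HDL NPs. Of 10 tested stem and progenitor markers, 3 did: Cd34, Meis1 and Cd27. Cd34 was at 17.1 to 24.1 CPM against 5.07 to 11.6 CPM. Of 9 tested T and NK cell markers, 1 did, Lck, at 2.29 to 6.58 CPM against 1.01 to 2.13 CPM. None of the markers of neutrophils (14 tested), monocytes (12) or macrophages (12) did. The part of lymphoid and progenitor cells in the levels of Flt3, Siglech, Ccr9, Spib and Tcf4, several of which such cells also express, was not tested. The libraries were made from cells isolated as CD11b+, and how many lymphoid and progenitor cells this step left was not measured. The Rn45s share was high in 2 of the mice numbered 1 and was 0.763% in the other, EnzR EVs + HDL NPs mouse 1.

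Over the 9 libraries, Siglech and Spib had the highest correlation of the 45 pairs among the 10 genes. Pearson's r of the log2 CPM was 0.94 (exact permutation p = 1.52e-04, adjusted over 45 pairs 0.00682) and Spearman's rho 0.93 (exact permutation p = 7.50e-04, adjusted 0.0337). Without the libraries farthest from the median of Siglech, 2 in number, r was 0.89. In the 6 mice numbered 2 and 3 alone, r was 0.93 (exact permutation p = 0.00694, adjusted 0.156) and rho 0.83 (exact permutation p = 0.0583, adjusted 0.438). Siglech and Cd209a were more highly correlated in these 6 mice, with r = 0.96 (exact permutation p = 0.00556, adjusted 0.156) against 0.54 over all 9. There Tcf4 and Runx2 had r = 0.92, and Spib and Cd209a 0.91. Flt3 and Siglech had r = 0.86 (exact permutation p = 0.00528, adjusted 0.0792) and rho = 0.90 (exact permutation p = 0.00203, adjusted 0.0456). Their r was 0.96 without the 2 libraries farthest from the median of Flt3. In the 6 mice numbered 2 and 3 it was 0.58 (exact permutation p = 0.235), so the relation was weaker without the mice numbered 1. Siglech had 2 to 33 counts per library, Spib 8 to 66 and Flt3 19 to 193, and the points share libraries. The exact permutations exchanged libraries across groups and mouse numbers. Their p-values therefore do not separate variation between mice from differences between groups or numbers. Of the 6 mice numbered 2 and 3, the PBS mice were the highest in both Siglech and Spib. Their log2 CPM was -0.06 and 0.17 for Siglech, against -1.47 to -0.67 in the EV-injected mice. For Spib it was 1.36 and 1.70, against 0.13 to 0.82.

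**Figure D4:**
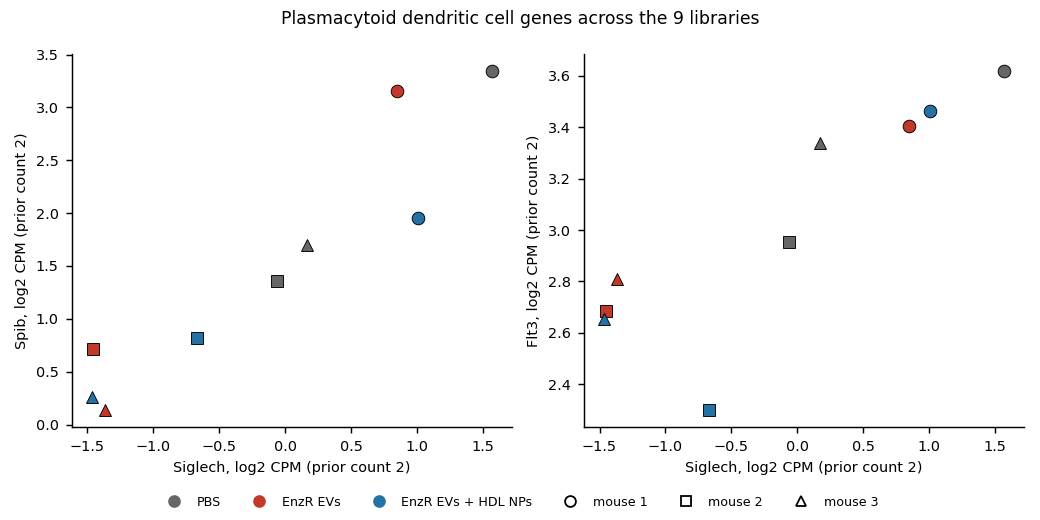
Log2 CPM (prior count 2) of Spib and of Flt3 against Siglech in the 9 libraries, coloured by group and shaped by mouse number. Spib follows Siglech over the whole range (r = 0.94), also within the squares and triangles, and the mice numbered 1 form the upper end in both panels. Among the squares and triangles, the PBS mice are the highest for Siglech and Spib.

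Outside the 10 genes, the tested genes most highly correlated with Siglech over the 9 libraries were Rag1 (r = 0.98), Hdac9 (r = 0.94) and Dact1 (r = 0.93). Rag1 encodes a recombinase of lymphoid progenitors and Hdac9 a histone deacetylase. Most highly correlated with Flt3 were Ly6d (r = 0.95), a surface marker of early lymphoid cells, Ptprs (r = 0.95) and Serpinf1 (r = 0.94). Most highly correlated with Cd209a were Gpd1 (r = 0.93), an enzyme of glycerol metabolism, Nrp2 (r = 0.89), a neuropilin, and 1110067D22Rik (r = 0.88). These were the highest of 12553 genes, so such values are given as a description.

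Among further genes of the dendritic cell subsets, none was called by edgeR in any comparison. The lists were chosen with earlier results of these data known. Of 14 tested further genes of type 2 and monocyte-derived cells, 10 were below 0 for EnzR EVs against PBS, with a median log2 fold change of -0.14 against -0.03 for all tested genes. Without overlap 3 of the 14 were lower and 0 higher, against 4.52% and 3.43% of all tested genes. With HDL NPs against PBS 3 were lower and 1 higher, against 6.21% and 6.96%. With HDL NPs against EnzR EVs 1 was higher, against 8.99%. Irf4 and Clec10a were named because their groups were apart at an unadjusted p under 0.05 by edgeR for EnzR EVs against PBS. Irf4, a transcription factor of type 2 dendritic cells and also of B and plasma cells, was at 15.1, 11.4 and 13.5 CPM in PBS mice, 7.13, 4.31 and 5.20 CPM after EnzR EVs and 9.18, 8.76 and 7.82 CPM with HDL NPs. All 3 groups were apart from each other. Its log2 fold change was -1.35 (SE 0.24, unadjusted p = 2.07e-04, adjusted p = 0.650 by edgeR) for EnzR EVs against PBS and 0.72 (SE 0.24, adjusted p = 0.461 by edgeR) with HDL NPs against EnzR EVs. Clec10a, a lectin of these cells and of macrophages, was at 10.0, 10.5 and 9.73 CPM in PBS mice, 4.94, 6.01 and 6.74 CPM after EnzR EVs and 7.71, 6.56 and 6.08 CPM with HDL NPs. The EV-injected mice of both groups were all below the PBS mice, with log2 fold changes of -0.73 (SE 0.22) and -0.57 (SE 0.21) and adjusted p = 0.928 and 1.00 by edgeR. The lectin gene Mgl2 of the same list went the other way for EnzR EVs against PBS, at 0.26 (SE 0.36) with overlapping groups.

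**Figure D5:**
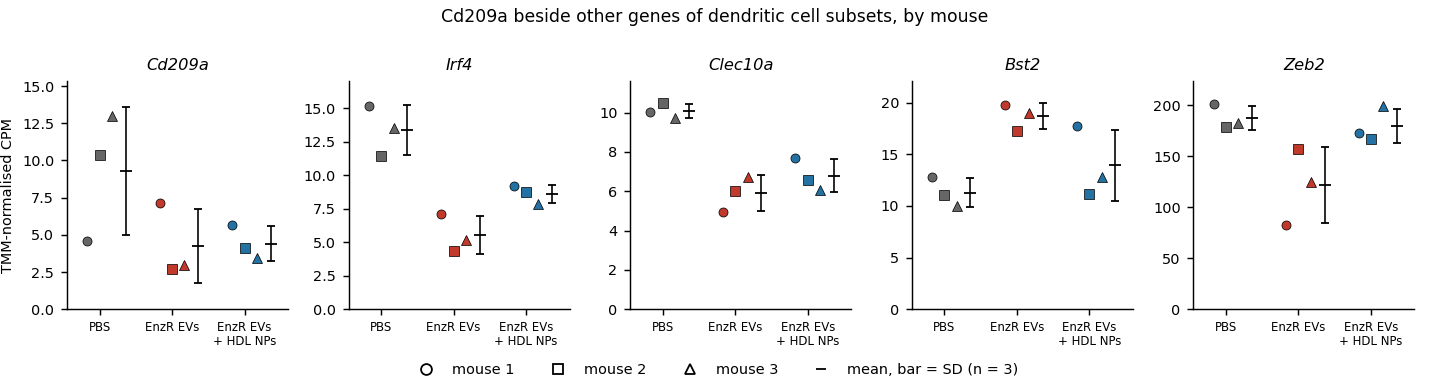
TMM-normalised CPM of Cd209a and of 4 genes of the plasmacytoid and type 2 lists in each mouse, with the mean and SD (n = 3) of each group. In Irf4 and Clec10a all PBS mice stand above all EV-injected mice, which in Cd209a holds for PBS mice 2 and 3 but not for mouse 1. The 4 list genes were chosen for an unadjusted p under 0.05 by edgeR and groups apart for EnzR EVs against PBS. In that comparison 4.52% of tested genes were lower and 3.43% higher without overlap.

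Of the 16 tested further plasmacytoid genes, 9 were below 0 for EnzR EVs against PBS, with a median of -0.04. Without overlap 1 of the 16 was higher and 1 lower, against 3.43% and 4.52% of all tested genes. These were Bst2 and Zeb2, named because their groups were apart at an unadjusted p under 0.05 by edgeR. Bst2, which encodes the marker PDCA-1 of plasmacytoid cells and is induced by interferon in many cell types, was at 12.8, 11.04 and 10.0 CPM in PBS mice, 19.8, 17.3 and 19.0 CPM after EnzR EVs and 17.8, 11.1 and 12.9 CPM with HDL NPs. Its EnzR EVs mice were all above the PBS mice (log2 fold change 0.73, SE 0.23, adjusted p = 0.928 by edgeR). Zeb2, a repressor needed by plasmacytoid cells and monocytes, was at 201, 179 and 183 CPM in PBS mice, 82.9, 157 and 125 CPM after EnzR EVs and 173, 167 and 199 CPM with HDL NPs, with a log2 fold change of -0.61 (SE 0.21, adjusted p = 0.928 by edgeR) for EnzR EVs against PBS. Of 15 further genes of type 1 cells, 8 were below 0 with a median of -0.02, from Tlr12 at 0.88 (SE 0.74) to Batf3 at -0.80 (SE 0.57). Of 19 genes shared by dendritic cells or tied to their maturation, 13 were below 0 with a median of -0.13, from the actin-bundling gene Fscn1 at 0.62 (SE 0.61) to the migration receptor gene Ccr7 at -1.13 (SE 0.81). With HDL NPs against PBS, where 6.21% of all tested genes were lower and 6.96% higher without overlap, Ccr7 was at -2.21 (SE 0.77) and Lag3, an inhibitory receptor gene of the plasmacytoid list, at -1.78 (SE 0.54), while Ifi205 and the toll-like receptor gene Tlr11 of the type 1 list were at 1.63 (SE 0.56) and 1.44 (SE 0.47). These 4 genes had groups that did not overlap and adjusted p = 1.00 by edgeR, and were named after their values were seen. In that comparison 4 of the 16 tested plasmacytoid genes were higher without overlap and 1 was lower. Of the 15 type 1 genes 2 were higher and 1 lower, and of the 19 shared or maturation genes 2 were higher and 2 lower. For EnzR EVs against PBS, the 20 genes for ligands and partners of the members had a median of -0.06. They ran from the signalling adaptor Tyrobp at 0.46 (SE 0.39) to Ascl2 at -0.85 (SE 0.41). For EnzR EVs against PBS again, the 11 tested growth factor and receptor genes had a median of 0.00. They ran from the GM-CSF receptor chain Csf2ra at 0.32 (SE 0.26) to Kitl at -0.86 (SE 0.42).

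No marker of other cells was called by edgeR, and their lists are given beside all tested genes. These lists too were chosen with earlier results of these data known, so their counts are a description. For EnzR EVs against PBS, 4.52% of all tested genes were lower and 3.43% higher without overlap. In that comparison 53.5% were below 0, with a median log2 fold change of -0.03, and 1.92% were lower at an unadjusted p under 0.05 by edgeR. Of 12 macrophage markers, 11 were below 0, with a median of -0.75 and 6 lower at such a p, and the complement gene C1qb was at 0.73 (SE 0.43). Their summed level was 1185, 1553 and 2115 CPM in PBS mice, 1047, 1266 and 1119 CPM after EnzR EVs and 1368, 1265 and 1241 CPM with HDL NPs, and PBS mouse 1 was the lowest of its group, as for Cd209a. No macrophage marker was at 0 in all libraries. Cd5l, which macrophages secrete, was at 54.7, 46.0 and 83.6 CPM in PBS mice, 33.5, 31.2 and 24.2 CPM after EnzR EVs and 46.0, 29.4 and 29.1 CPM with HDL NPs. The macrophage genes Axl and Vcam1 had log2 fold changes of -0.78 (SE 0.19) and -0.71 (SE 0.25), again with all EnzR EVs mice below all PBS mice. Of 12 monocyte markers, 9 were below 0 with a median of -0.31, among them Cx3cr1 at 60.02, 69.1 and 67.7 CPM in PBS mice and 39.5, 45.8 and 43.2 CPM after EnzR EVs, and the fibronectin gene Fn1 at a log2 fold change of -0.81 (SE 0.22), also with groups apart. Of 12 tested B lineage markers, all were below 0 with a median of -0.998, and Pax5, with 5, 11 and 11 counts in PBS mice and 0, 3 and 1 after EnzR EVs, was apart between these groups. In EnzR EVs mouse 1 the depth allows up to 1.65 CPM at 0 counts, above the PBS values of 0.629 to 0.880 CPM. That library therefore does not establish the separation of Pax5. The median was -0.55 for plasma cell, -0.38 for T and NK cell, -1.09 for erythroid, -0.53 for megakaryocyte, -0.51 for endothelial, -0.22 for stromal and -0.01 for stem and progenitor markers, and of 14 neutrophil markers 11 were below 0 with a median of -0.13. Groups were also apart, at an unadjusted p under 0.05, for the plasma cell marker 2010001M09Rik at -1.95 (SE 0.70), the erythroid marker Epb4.2 at -1.27 (SE 0.49) and the stem cell marker Ly6a, which was higher at 1.10 (SE 0.49). The same limit holds for 2010001M09Rik, which had 0 counts in EnzR EVs mouse 1 and 0.690 to 0.915 CPM in PBS mice. In the lists with no such gene, log2 fold changes ran from Mpo at 0.36 to Mmp8 at -0.66 for neutrophils, from Lck at 0.67 to Cd4 at -1.43 for T and NK cells, from Gp1bb at 0.52 to Ppbp at -1.36 for megakaryocytes, from Col3a1 at 1.21 to Spp1 at -0.54 for stroma and from Tek at 0.07 to Stab2 at -1.07 for endothelium. With HDL NPs against PBS, where the median of all tested genes was -0.01, monocyte markers had a median of 0.06, with 5 of 12 below 0. Neutrophil markers were at 0.11, with 6 of 14 below 0. All 12 macrophage markers were below 0 with a median of -0.37, as were all 12 tested B lineage markers with -0.78. The part of macrophages and monocytes in the level of Cd209a was not tested.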

How the data were processed

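RNA of CD11b+ bone marrow cells of 9 mice, 3 per group, was sequenced after ribosomal RNA depletion with a stranded kit and single-end 75 bp reads. The deposited values are read counts per gene, which the authors made with cutadapt 1.13, STAR and HTSeq 0.6.1p1 on mm10. The strand setting of the counting is not given in the sources used here, and RNA extraction is given as Trizol in the labels and as RNeasy in the methods. The authors used DESeq2.

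Here genes were filtered with filterByExpr (minimum count 10), scaled by TMM and tested with the quasi-likelihood test of edgeR 4.0.16 in R 4.3.3 over all 9 libraries, with Benjamini-Hochberg adjustment over all 12553 genes and a threshold of 0.05. DESeq2 1.42.0 and limma 3.58.1 were alternatives. The code was tested on simulated data. Log2 CPM used a prior count of 2. Levels per kilobase used the longest basic protein-coding GENCODE transcript. Depth was 2575776 to 18110561 counts, and intervals and limits at 0 (3 counts) cover counting error only. The methods state 3 mice per group, so p-values measure the spread between these mice. In no group did libraries agree within sampling noise.

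The members and lists were chosen with earlier results of these data known. Of 246 list entries, 242 matched the tables. Named were all members, the Cd209 family and the 3 genes most highly correlated with each of Siglech, Flt3 and Cd209a. From the lists described, genes with an unadjusted p under 0.05 by edgeR and groups apart for EnzR EVs against PBS were named. Lists without such a gene gave the largest and smallest fold change. A few more were named for their role or after their values were seen. Tcf4 has no promoter window here.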

Additional observations from a re-analysis of the deposited data

How the results depend on the processing

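Leaving out each mouse in turn, and 11 other fits, gave 509 values for the members, of which 60 changed sign and 1, Cd209a, passed the threshold. Siglech did not pass the filter on low counts in 1 fit. For EnzR EVs against PBS, Flt3, Siglech, Spib, Runx2, Clec9a, Zbtb46 and Cd209a, 7 of 10, kept their direction in every alternative run, as did 4 members with HDL NPs against PBS and 2 with HDL NPs against EnzR EVs. Their size varied. Leaving out 1 mouse moved Spib from -0.91 to -0.12 (without PBS mouse 1) or -1.92 (without EnzR EVs mouse 1) and Siglech from -1.90 to between -2.57 and -1.23 for EnzR EVs against PBS. With HDL NPs against PBS it moved Spib from -1.19 to -0.36 (without PBS mouse 1) or -1.87 and Siglech from -0.67 to -0.038 (without PBS mouse 1) or -1.97, the lower values being without EnzR EVs + HDL NPs mouse 1. With quality weights Ccr9 was at -1.44 (adjusted p = 0.0973 by limma voom) for EnzR EVs against PBS and 1.80 (adjusted p = 0.0844) with HDL NPs against EnzR EVs. Cd209a ranged from -2.04 to -1.04 for EnzR EVs against PBS, with adjusted p from 0.0130 to 1.00. Low counts limited Siglech, Ccr9, Xcr1, Zbtb46 and Clec9a, each with a library at 3 counts or fewer. For Ccr9 that library was EnzR EVs mouse 3, with 2 counts, while the shallowest, EnzR EVs mouse 1, had 7. The parts of depth and of low expression were not tested. The cause of a changed value was not tested.

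Without a TMM step the median of all tested genes moved from -0.03 to -0.18 for EnzR EVs against PBS and from 0.03 to 0.24 with HDL NPs against EnzR EVs. Genes called for EnzR EVs against PBS, with HDL NPs against PBS and with HDL NPs against EnzR EVs were 8, 7 and 1 by DESeq2 and 1990, 10 and 653 by limma voom with sample quality weights. Without a filter 1 gene was called for EnzR EVs against PBS, with 6 libraries per fit 1 with HDL NPs against EnzR EVs, and without the libraries of lowest totals, 2 in number, 5 and 1 in these comparisons. With the mice numbered 1 left out, an alternative chosen after seeing the data, 2, 1 and 3 were called. Leaving out 1 mouse gave 0 to 2 calls for EnzR EVs against PBS, the highest without PBS mouse 1, and 0 otherwise.

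These log2 fold changes turned sign with HDL NPs against EnzR EVs. In limma voom Spib was 0.21 and Zbtb46 -0.12. With quality weights Spib was 0.65, Tcf4 0.0046, Runx2 -0.0012 and Zbtb46 -0.055. By library size only Flt3 was 0.22, Spib 0.027 and Xcr1 0.014, and without a filter Flt3 was 0.013. Without the lowest totals Flt3 was 0.15, Spib 0.75 and Tcf4 0.20, and without the mice numbered 1 Spib was 0.067, Tcf4 0.13 and Zbtb46 -0.30. For EnzR EVs against PBS, Tcf4 was -0.0095 in limma voom and -0.032 both without the lowest totals and without the mice numbered 1, and Xcr1 -0.033 by library size only. Of the values with HDL NPs against PBS, Ccr9 was -0.058 in DESeq2, Tcf4 and Xcr1 were 0.084 and 0.20 with quality weights, 0.16 and 0.29 without the lowest totals and 0.093 and 0.14 without the mice numbered 1, and Runx2 was 0.044 in the last.

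Leaving out 1 mouse gave, for EnzR EVs against PBS, Ccr9 from -0.67 to 0.44, Tcf4 from -0.29 to 0.54 and Xcr1 from -0.19 to 0.42. It also gave Flt3 from -0.57 to -0.23, Runx2 from -0.24 to -0.026, Clec9a from -1.24 to -0.69 and Zbtb46 from -0.52 to -0.10. With HDL NPs against PBS it gave Ccr9 from -0.34 to 0.50, Tcf4 from -0.23 to 0.16, Clec9a from -0.30 to 0.27, Xcr1 from -0.37 to 0.29 and Zbtb46 from -0.73 to 0.063. Flt3 ran from -0.84 to -0.21 there and Runx2 from -0.32 to -0.0091. With HDL NPs against EnzR EVs it gave Flt3 from -0.46 to 0.17, Siglech from -0.10 to 1.93, Ccr9 from -0.44 to 0.69, Spib from -0.99 to 0.75, Tcf4 from -0.64 to 0.19, Runx2 from -0.18 to 0.13, Xcr1 from -0.42 to 0.20 and Zbtb46 from -0.37 to 0.43.

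The groups share replicate numbers. Of 9 pairs of libraries with the same number, deviations from the group means correlated at -0.18 to 0.49, with 6 pairs over 0.1, and 3 of 9 libraries were closest to their own number in both other groups, so the numbers were not treated as pairs, which required every pair over 0.1. The pairs numbered 2 were at 0.21 to 0.49, and whether a number marks something the mice share is not given in the labels. With the replicate block 1 gene was called for EnzR EVs against PBS, no member was called, and Zbtb46 turned to -0.057 with HDL NPs against EnzR EVs.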
